A study of Mus musculus with 15 samples.

Results

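The subject of this report is 10 target genes of the transcription factor p53, namely *Cdkn1a*, *Mdm2*, *Ccng1*, *Trp53inp1*, *Phlda3*, *Sesn2*, *Eda2r*, *Bbc3*, *Zmat3* and *Pmaip1*. They were taken by name from a fixed list and not by a cut on any measured value, although earlier results of these data were known when they were chosen. All 10 were found among the 48709 genes counted. RNA was sequenced from mouse ESCs after removal of OCT4, the product of *Pou5f1*, in 15 libraries. CreER ESCs (Oct4Fl/-; CAG CreER, on a mixed 129SV and C57BL/6 background) carry 1 floxed allele opposite a null allele, and 4-OHT (500 nM) activates the Cre recombinase that deletes the floxed copy. They were sampled untreated (0 h) and after 12, 18, 24 and 36 h, in 2 replicates each. O4AID ESCs (Oct4-/-; TetOFF Oct4; CAG Oct4AID; CAG Tir1, 129SV), a piggyBac-transfected derivative of ZHBTc4, hold the wild-type *Oct4* transgene silent with doxycycline (1 µg/ml) and depend on OCT4 fused to an auxin-inducible degron. The auxin IAA (500 µM) triggers destruction of that fusion protein through TIR1, and the times 0, 1.5, 6, 10 and 24 h are represented by a single library each. All cells grew in N2B27 with PD03 (1 µM), Chiron (3 µM) and LIF. Cells without a floxed allele given 4-OHT, or without the degron given IAA, were not analysed here, so that OCT4 loss and the agent that caused it cannot be told apart.

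p53 is a DNA-binding protein that is normally kept scarce by MDM2, the ubiquitin ligase that marks it for degradation. Damaged DNA, including the cuts that a recombinase makes, and other stresses free p53 from MDM2, and p53 then switches on genes that halt the cell cycle, repair damage, limit growth or kill the cell. *Mdm2* is itself a target, which closes a feedback loop. ESCs contain much p53 and pass quickly through the cell cycle with little CDKN1A, and p53 activity in them has also been tied to differentiation.

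Because the genes were chosen for a shared regulator, the DNA ahead of their start sites was read from RefSeq promoter windows (GRCm38.p6, 250 bases before to 50 after each start), which covered 7 of the 10 genes in 10 windows. *Trp53inp1*, *Zmat3* and *Pmaip1* had no window. The p53 consensus consists of a pair of 10-base half-sites. An exact half-site on either strand lay in 3 of these 10 windows, each of another gene, against 8.36% of the 32851 windows of all genes, and the 20-base full site with at most 3 mismatches, none of them in the invariant C and G of either half-site, also lay in 3 of the 10, against 1.38% of all windows. The full-site search includes sequences that also hold a half-site. Matches are descriptions of sequence, binding was not measured, and DNA outside these windows was not searched. The matches are shown with agreeing bases in capitals and mismatches in lower case, read along the plus strand for *Cdkn1a* and *Bbc3* and along the minus strand for *Ccng1* and *Mdm2*.
Cdkn1a full site (chr17:29090928-29090947, plus strand, 1 mismatch, starting 51 bases before the first start site): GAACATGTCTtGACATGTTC
Ccng1 full site (chr11:40755462-40755481, minus strand, 1 mismatch, 195 bases before the start): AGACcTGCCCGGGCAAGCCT
Bbc3 full site (chr7:16309486-16309505, plus strand, 3 mismatches, 97 bases before the start): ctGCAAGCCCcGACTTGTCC
Mdm2 half-site (chr10:117710935-117710944, minus strand, exact, 186 bases before the start): GAACTTGCCT

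*Cdkn1a* has 2 start sites in RefSeq, 2790 bases apart, so that its full site lies 2841 bases before the second. A further exact half-site, GGACTAGCTT, lies 73 bases before the first start. The whole windows of *Cdkn1a* (upstream start), *Ccng1* and *Mdm2* follow, since the first 2 hold the closest full-site matches and *Mdm2* rose furthest of the 10 in CreER ESCs. Capitals mark the full site in *Cdkn1a* and *Ccng1* and the half-site in *Mdm2*.
Cdkn1a (chr17:29090729-29091028, plus strand): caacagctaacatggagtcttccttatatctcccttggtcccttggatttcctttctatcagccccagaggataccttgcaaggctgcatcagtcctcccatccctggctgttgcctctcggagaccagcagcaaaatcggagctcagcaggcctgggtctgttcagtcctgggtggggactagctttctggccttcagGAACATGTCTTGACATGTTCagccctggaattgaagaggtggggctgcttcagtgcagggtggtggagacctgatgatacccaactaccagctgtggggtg
Ccng1 (chr11:40755237-40755536, minus strand): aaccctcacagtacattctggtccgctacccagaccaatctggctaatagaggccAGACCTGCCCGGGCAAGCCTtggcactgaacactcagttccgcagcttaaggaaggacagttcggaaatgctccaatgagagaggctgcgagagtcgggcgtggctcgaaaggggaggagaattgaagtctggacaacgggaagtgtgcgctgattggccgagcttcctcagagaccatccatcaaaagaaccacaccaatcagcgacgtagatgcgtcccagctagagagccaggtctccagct
Mdm2 (chr10:117710709-117711008, minus strand): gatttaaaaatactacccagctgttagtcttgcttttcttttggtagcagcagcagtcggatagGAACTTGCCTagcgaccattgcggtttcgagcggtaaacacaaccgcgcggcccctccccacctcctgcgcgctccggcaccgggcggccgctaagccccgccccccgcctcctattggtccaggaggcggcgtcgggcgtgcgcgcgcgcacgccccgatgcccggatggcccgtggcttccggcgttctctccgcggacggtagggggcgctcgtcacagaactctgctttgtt

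The libraries held 21655083 to 30774618 gene counts in CreER and 40537353 to 48719670 in O4AID. In CreER, *Pou5f1* fell from a mean of 327 CPM (read counts scaled to library size with TMM factors) at 0 h to 121 CPM at 36 h (log2 change -1.43, adjusted p 4.15e-19, SE 0.045). In O4AID the protein is degraded and not the transcript, so that the *Pou5f1* count (717 CPM at 0 h and 601 CPM at 24 h) does not check the labels. The ESC markers *Pou5f1*, *Sox2*, *Nanog*, *Zfp42*, *Esrrb*, *Dppa5a*, *Tdgf1* and *Klf4* were all present in every group examined. Their summed level, in TPM (a level per transcript length and library size), went from 4634 to 4826 at 0 h to 3005 to 3226 at 36 h in CreER, and from 8880 at 0 h to 2924 at 24 h in O4AID. The CreER sum hides markers that went the other way. Mean *Nanog* went from 575 to 660 CPM and *Esrrb* from 268 to 281 CPM, while the others were lower at 36 h, *Tdgf1* going from 696 to 261 CPM. The 8 trophectoderm markers went from 436 to 459 to between 787 and 811 TPM in CreER and from 83.6 to 185 TPM in O4AID. In O4AID *Tfap2c* was lower at 24 h (86.4 and 77.4 CPM) and *Elf5* stayed near the floor (0.192 and 0.249 CPM). The 5 primitive endoderm markers went from 3.33 and 4.04 to 5.66 and 6.11 TPM in CreER and from 5.92 to 21.7 TPM in O4AID, where *Sox7* had at most 3 counts. In CreER mean *Sox7* went the other way, from 1.60 to 0.48 CPM. The others were higher at 36 h, *Gata6* going from 0.80 to 4.83 CPM and *Gata4* only from 1.98 to 2.35 CPM. The 6 fibroblast markers summed to at most 6.71 TPM in the untreated and final libraries. These marker levels moved over the same hours as the p53 target genes, and their part in the results was not tested. In RNA from bulk cultures, a change in the share of cells that express a gene and a change in the RNA per cell cannot be told apart.

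The first comparison asked when, if at all, the p53 target genes moved as *Pou5f1* was deleted. In CreER ESCs 5 of the 10, *Mdm2*, *Ccng1*, *Trp53inp1*, *Phlda3* and *Cdkn1a*, rose by 18 h and were still above untreated cells at 24 and 36 h, by less than 2-fold. *Bbc3* passed the test from 24 h and *Eda2r* at 36 h, *Pmaip1* fell from 24 h, and *Sesn2* and *Zmat3* passed at no time. At 12 h, when *Pou5f1* had already fallen by 0.51 on the log2 scale, none of the 10 passed edgeR's quasi-likelihood test at an adjusted p under 0.05. At that time 3 had an unadjusted p under 0.05, DESeq2 called 0 of the 10, and edgeR called 0.395% of the 18969 genes tested.

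At 18 h 5 of the 10 had risen and 0 had fallen, against 4.73% and 3.79% of all genes tested, or 8.52% called in either direction. At 24 h 6 had risen and 1 had fallen, where 11% of all genes rose and 10.6% fell, 21.6% together. At 36 h 7 had risen and 1 had fallen, where 19.4% rose and 17.2% fell, 36.6% together. In time order the median log2 change of the 10 was 0.03, 0.19, 0.28 and 0.34, and that of all genes tested lay between -0.00 and 0.01 at each of these times. When either 18 h library was left out, a single library stood for that group. Fewer of the 10 then passed at 18 h, and so did fewer of all genes tested. With counts scaled by library total alone, 5 rose and 2 fell at 36 h. In that setting 7498 of the 18969 genes tested passed, 2696 of them higher, and the median log2 change of all genes was -0.08.

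**Figure D1:**
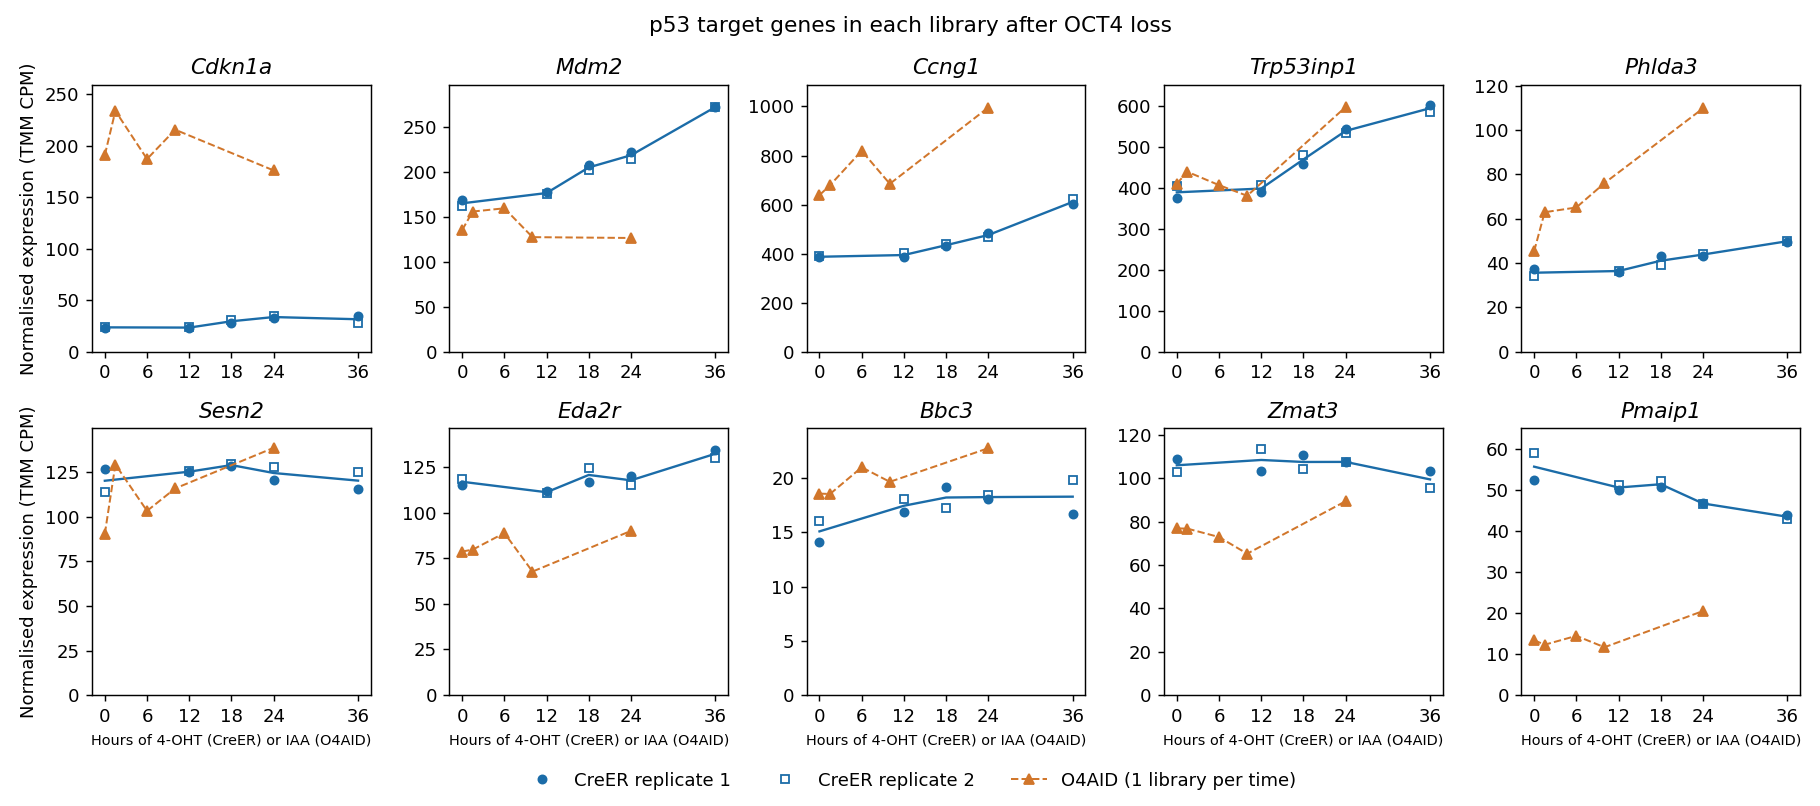
TMM-normalised CPM (vertical axes, each from 0) of the 10 p53 target genes against hours of 4-OHT or IAA. Blue circles and squares are CreER replicates 1 and 2 with a line through their mean, and orange triangles are single O4AID libraries. Mdm2, Ccng1 and Trp53inp1 climb in CreER with both replicates close together, Cdkn1a sits far higher in O4AID at every time, and Pmaip1 sits lower there.

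*Mdm2* (chr10:117688888-117710758, minus strand) encodes the ubiquitin ligase that holds p53 down. Its level in CreER was 169 and 162 CPM in replicates 1 and 2 at 0 h, 178 and 176 CPM at 12 h, 208 and 202 CPM at 18 h, 222 and 215 CPM at 24 h, and 272 and 273 CPM at 36 h. The replicates lay close together at each time, and from 12 h on both lay above both untreated libraries. The rise was 0.31 on the log2 scale at 18 h (adjusted p 7.62e-06, SE 0.041), 0.41 at 24 h (adjusted p 2.23e-08) and 0.72 at 36 h (adjusted p 6.58e-14, SE 0.041), which is 1.65-fold and the largest of the 10. At 12 h the log2 change of 0.10 did not pass (adjusted p 0.473).

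*Ccng1* (chr11:40748552-40755311, minus strand) encodes cyclin G1, which works with MDM2 in restraining p53. It was the most abundant of the 10 per length in both lines. It measured 386 and 389 CPM at 0 h, 385 and 403 CPM at 12 h, 429 and 439 CPM at 18 h, 484 and 468 CPM at 24 h, and 601 and 621 CPM at 36 h. The groups at 0 and 12 h overlapped, and the later groups lay above both. The log2 change was 0.17 at 18 h (adjusted p 0.00722, SE 0.039), 0.30 at 24 h (adjusted p 2.22e-06) and 0.66 at 36 h (adjusted p 2.39e-13), or 1.58-fold. The 18 h call was lost without replicate 1 at 18 h (adjusted p 0.0541) and without replicate 2 at 18 h (adjusted p 0.107).

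*Cdkn1a* (chr17:29090979-29100722, plus strand) encodes p21, the CDK inhibitor through which p53 halts the cell cycle. It was weakly expressed in CreER, at 23.1 and 24.1 CPM at 0 h, 22.6 and 24.2 CPM at 12 h, 28.3 and 30.8 CPM at 18 h, 32.8 and 34.5 CPM at 24 h, and 34.9 and 28.1 CPM at 36 h. Both libraries exceeded the untreated ones from 18 h, and the replicates parted most at 36 h, by 0.30 on the log2 scale. The log2 change was 0.32 at 18 h (adjusted p 0.0122, SE 0.081), 0.51 at 24 h (adjusted p 3.97e-05, SE 0.079) and 0.42 at 36 h (adjusted p 0.000216, SE 0.082). Thus its point estimate was highest at 24 h, but 36 h did not differ from 24 h by the same test (-0.09, adjusted p 0.521; without replicate 1 at 36 h, -0.26, adjusted p 0.0438). The 18 h call was lost without replicate 1 at 0 h (adjusted p 0.0579) or replicate 2 at 18 h (adjusted p 0.173), and without replicate 1 at 36 h the 36 h change was 0.25 (adjusted p 0.0301).

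**Figure D2:**
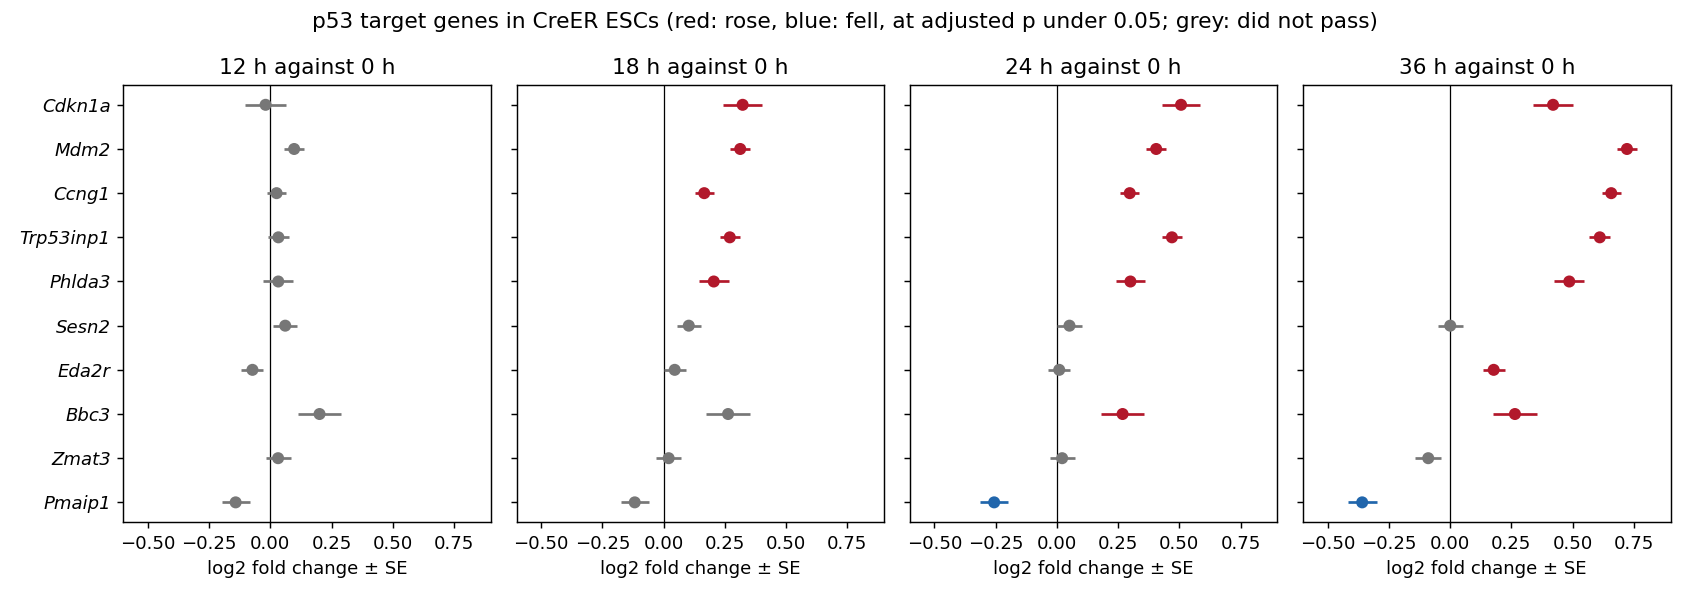
Log2 fold change against 0 h in CreER ESCs (horizontal axis; points are edgeR estimates and bars their SE) for each p53 target gene at 12, 18, 24 and 36 h, red for genes that rose, blue for genes that fell and grey for genes that did not pass. Every point is grey at 12 h, and at 36 h Mdm2 lies furthest to the right at 0.72 while Pmaip1 lies to the left at -0.36.

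*Trp53inp1* (chr4:11156431-11174379, plus strand) encodes a nuclear stress protein that aids p53 in arrest and cell death. It was at 375 and 405 CPM at 0 h, 391 and 408 CPM at 12 h, 460 and 480 CPM at 18 h, 544 and 536 CPM at 24 h, and 604 and 587 CPM at 36 h. Each group from 18 h lay wholly above the one before. It rose by 0.27 on the log2 scale at 18 h (adjusted p 8.3e-05, SE 0.042), 0.47 at 24 h (adjusted p 2.81e-09) and 0.61 at 36 h (adjusted p 3.91e-12), or 1.53-fold.

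*Phlda3* (chr1:135766119-135769136, plus strand) encodes a small membrane-binding protein that competes with AKT and so damps survival signalling. Its level was 37.2 and 34.0 CPM at 0 h, 36.2 and 36.6 CPM at 12 h, 42.9 and 39.1 CPM at 18 h, 43.3 and 44.3 CPM at 24 h, and 49.65 and 49.97 CPM at 36 h. It rose by 0.30 at 24 h (adjusted p 0.000618, SE 0.061) and 0.49 at 36 h (adjusted p 3.33e-07). The smaller change of 0.21 at 18 h (adjusted p 0.0348) rested on single libraries. Its adjusted p was 0.326 without replicate 2 at 0 h and 0.389 without replicate 1 at 18 h. It was 0.0571 and 0.0541 without replicate 1 or 2 at 12 h, 0.0566 and 0.0564 without replicate 1 or 2 at 24 h, and 0.117 by DESeq2.

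*Bbc3* and *Pmaip1* encode PUMA and NOXA, BH3-only members of the BCL2 family that trigger the mitochondrial route of cell death, and these parted in direction. *Bbc3* (chr7:16308393-16318205, plus strand) was the least abundant of the 10 per length in untreated CreER ESCs. It measured 14.1 and 16.1 CPM at 0 h, 16.8 and 18.1 CPM at 12 h, 19.2 and 17.2 CPM at 18 h, 18.1 and 18.4 CPM at 24 h, and 16.7 and 19.9 CPM at 36 h. The treated groups lay above both untreated libraries and, save for those of 12 and 24 h, overlapped each other. Its log2 change passed narrowly at 24 h (0.27, adjusted p 0.0295, SE 0.088) and 36 h (0.26, adjusted p 0.0239) and not at 18 h (0.26, adjusted p 0.0651; without replicate 1 or 2 at 36 h, 0.0400 and 0.0403). The adjusted p at 24 h was 0.227 without replicate 1 at 0 h, 0.117 and 0.141 without replicate 1 or 2 at 24 h, and 0.107 by DESeq2. At 36 h it was 0.203 without replicate 1 at 0 h, 0.333 without replicate 2 at 36 h, 0.113 with total-count scaling and 0.0877 by DESeq2.

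*Pmaip1* went the other way. It was at 52.5 and 59.1 CPM at 0 h, 50.1 and 51.3 CPM at 12 h, 50.8 and 52.2 CPM at 18 h, 46.9 and 46.7 CPM at 24 h, and 44.1 and 43.1 CPM at 36 h. Every treated library lay below both untreated ones. It fell by 0.26 on the log2 scale at 24 h (adjusted p 0.00166, SE 0.057; 0.0686 without replicate 2 at 0 h) and by 0.36 at 36 h (adjusted p 1.81e-05). At 18 h the change of -0.12 did not pass (adjusted p 0.221; -0.20 and 0.0258 without replicate 1 at 0 h).

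*Eda2r* (chrX:97333840-97377216, minus strand) encodes a receptor of the TNF receptor family for ectodysplasin A2. Its level was 115 and 118 CPM at 0 h, 112 and 111 CPM at 12 h, 117 and 125 CPM at 18 h, 120 and 115 CPM at 24 h, and 134 and 130 CPM at 36 h. Only the 36 h pair stood above all other CreER libraries, and the log2 change there was 0.18 (adjusted p 0.00252, SE 0.045). With total-count scaling it was 0.09 and did not pass (adjusted p 0.145).

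*Sesn2* and *Zmat3* passed at no time in CreER. *Sesn2* (chr4:132492032-132510501, minus strand) encodes a sestrin, which restrains mTORC1 under stress and is a target of ATF4 as well as of p53. It lay between 114 and 129 CPM in all 10 libraries, and its log2 change ran from 0.00 at 36 h (adjusted p 0.993, SE 0.050) to 0.10 at 18 h (adjusted p 0.222; 0.18 and 0.0319 without replicate 1 at 0 h). *Zmat3* (chr3:32334792-32366014, minus strand), which encodes an RNA-binding zinc finger protein, lay between 95.4 and 114 CPM. Its change at 36 h was -0.09 (adjusted p 0.193, SE 0.052), and with total-count scaling it was -0.17 and passed (adjusted p 0.0121).

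Contrasts between neighbouring times placed these moves. From 12 to 18 h 3 of the 10 rose, where 1.04% of all genes tested rose and 1.55% passed in either direction, namely *Cdkn1a* (0.34, adjusted p 0.0295), *Mdm2* (0.22, adjusted p 0.00418) and *Trp53inp1* (0.24, adjusted p 0.00199). With any single library of 12 or 18 h left out, fewer of the 10 passed, and so did fewer of all genes tested. From 18 to 24 h only *Trp53inp1* passed (0.20, adjusted p 0.00897), where 1.35% of all genes did. Without any single library of 18 or 24 h its log2 change ran from 0.17 to 0.23. It did not pass in those fits, where fewer of all genes passed too. Without replicate 2 at 36 h more of the 10 and more of all genes passed. From 24 to 36 h 5 rose and 0 fell, where 8.13% of all genes rose, 6.55% fell and 14.7% passed in all: *Mdm2* (0.32, adjusted p 2.47e-06), *Ccng1* (0.36, adjusted p 2e-07), *Trp53inp1* (0.14, adjusted p 0.0212), *Phlda3* (0.19, adjusted p 0.0344) and *Eda2r* (0.17, adjusted p 0.0109). With any single library of 24 or 36 h left out, fewer of the 10 rose, and fewer of all genes passed. Without replicate 1 at 36 h the log2 change of *Cdkn1a* was -0.26. *Phlda3* did not pass when any 1 library of 12, 24 or 36 h was left out (adjusted p 0.0508 to 0.197). With total-count scaling, which shifts the median of all genes between 24 and 36 h by -0.10, 2 rose and 3 fell. In that setting 3887 of all genes passed, 682 of them higher. The 5 rises were each larger than that shift, but those of *Trp53inp1* (0.03, adjusted p 0.661), *Eda2r* (0.06, adjusted p 0.434) and *Phlda3* (0.08, adjusted p 0.418) did not pass with total-count scaling.

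The transcript of p53 itself did not rise with its targets. *Trp53* was at 397 and 367 CPM at 0 h, 378 and 371 CPM at 12 h, 374 and 351 CPM at 18 h, 319 and 328 CPM at 24 h, and 273 and 293 CPM at 36 h. It fell by 0.24 on the log2 scale at 24 h (adjusted p 0.000283, SE 0.045) and by 0.43 at 36 h (adjusted p 1.35e-08). *Mdm4*, the MDM2 relative that blocks p53 without degrading it, lay between 206 and 234 CPM throughout and had a log2 change of -0.05 at 36 h (adjusted p 0.461; -0.14 and 0.0239 without replicate 1 at 0 h). p53 protein was not measured in these libraries.

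Of 32 other genes known as p53 targets, all tested, 18 rose and 3 fell at 36 h, with a median log2 change of 0.29 beside 0.01 for all genes and 36.6% of all genes called. Earlier, 0 passed at 12 h (4 at an unadjusted p under 0.05 and 0 by DESeq2), 8 had risen and 2 fallen at 18 h, and 12 had risen and 2 fallen at 24 h. The shares of all genes that rose and fell were 4.73% and 3.79% at 18 h, 11% and 10.6% at 24 h, and 19.4% and 17.2% at 36 h. Of its rises the largest at 36 h were *Gdf15*, a secreted stress cytokine (1.09, adjusted p 7.01e-05, SE 0.20), the detoxifying epoxide hydrolase gene *Ephx1* (0.80, adjusted p 7.96e-05) and the antiproliferative gene *Btg2* (0.78, adjusted p 4.8e-12). *Ei24* (-0.61, adjusted p 1.55e-10), *Pml* (-0.32, adjusted p 8.82e-07) and *Tigar*, a regulator of glycolysis (-0.32, adjusted p 2.63e-05), fell. *Ei24* and *Tigar* overlap exons of *Gm26787* and *Platr31* on the opposite strand, which held at most 21 and 46 counts.

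Among p53 and its regulators more genes fell than rose. Of 25 listed genes, 24 were tested (*Trp63* was too low), and 4 rose and 9 fell at 36 h, or 16.7% and 37.5% beside 19.4% and 17.2% of all genes, with a median of -0.06. *Trp73*, the p53 relative, had a log2 change of -0.98 (adjusted p 0.00111, SE 0.21). *Sirt1*, which deacetylates p53, fell by 0.55 (adjusted p 3.07e-10) and the ribosomal protein gene *Rpl11*, whose product binds MDM2, by 0.46 (adjusted p 0.00207; -0.20 and 0.173 without replicate 2 at 0 h). The fall of *Rpl11* was measured at a low level, with 323 and 530 counts at 0 h and 289 and 225 at 36 h. The untreated O4AID library held 34068 counts of it. *Rpl5*, also among the 9 that fell, had 1459 and 1765 counts in untreated CreER and 75051 in untreated O4AID. The cause of this gap between the lines was not tested, so both falls are uncertain. *Ppp1r13b*, which encodes the p53 partner ASPP1, rose by 0.42 (adjusted p 0.00118), *Wrap53* by 0.30 (adjusted p 0.000448) and *Prkdc*, the DNA-dependent protein kinase gene, by 0.24 (adjusted p 0.000265). With total-count scaling 3 rose and 13 fell, where 7498 of all 18969 genes passed, 2696 of them higher, with a median of -0.08.

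The cell cycle genes that p53 lowers through CDKN1A and the DREAM complex had a median close to 0 in CreER. Of 28 genes, 3 rose and 6 fell at 36 h (median -0.05), and the share called, 32.1%, was below the 36.6% of all genes. The largest falls were those of *Mcm2* (-0.21, adjusted p 5.27e-05), a subunit of the replicative helicase, the mitotic kinase gene *Plk1* (-0.21, adjusted p 0.000598) and the checkpoint kinase gene *Bub1* (-0.18, adjusted p 0.000777), and *Cdc25c*, a phosphatase gene of mitotic entry, rose by 0.41 (adjusted p 5.49e-05). With total-count scaling 2 rose and 15 fell. That scaling lowered the median of all genes to -0.08, and 7498 of 18969 passed, 2696 of them higher.

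Of 15 genes of the BCL2 family, which include *Bbc3* and *Pmaip1*, 6 rose and 4 fell at 36 h, or 66.7% beside 36.6% of all genes, with a median of 0.12. The BH3-only genes *Bmf* (0.59, adjusted p 1.33e-06) and *Bad* (0.47, adjusted p 0.000278) and the survival gene *Bcl2l2* (0.45, adjusted p 0.00031) rose, while *Bok* (-0.49, adjusted p 0.00163) and *Bid* (-0.35, adjusted p 0.000553) fell, as did *Pmaip1*. Without replicate 1 at 36 h the change of *Bok* was -0.27 (adjusted p 0.116) and that of *Bid* -0.23 (adjusted p 0.0429). *Bad* and *Bid* share exonic bases with *Gpr137* and *Bcl2l13* on the opposite strand, and the strand setting of the counting is not given in the sources used here, so that both values are uncertain. Of 13 genes of the ATF4 and CHOP stress pathway, to which *Sesn2* also belongs, 3 rose and 1 fell at 36 h with a median of -0.01, and the share called, 30.8%, was below the 36.6% of all genes. The risers were *Atf3* (0.76, adjusted p 0.000105), *Ddit3*, which encodes CHOP (0.68, adjusted p 8.3e-06), and *Ddit4*, also among the 32 targets (0.50, adjusted p 4.02e-06). *Ddit3* overlaps 68 exonic bases of *Mars* on the opposite strand. *Mars* held up to 13493 counts and *Ddit3* as few as 164, so that the value of *Ddit3* is uncertain too. The serine synthesis gene *Phgdh* fell by 0.22 (adjusted p 0.0182; 0.124 without replicate 1 at 0 h and 0.286 without replicate 1 at 36 h). With total-count scaling 3 of the 13 rose and 4 fell, where 7498 of all 18969 genes passed, 2696 of them higher. By DESeq2 3 rose and 0 fell, where 5141 passed, 2547 of them higher.

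**Figure D3:**
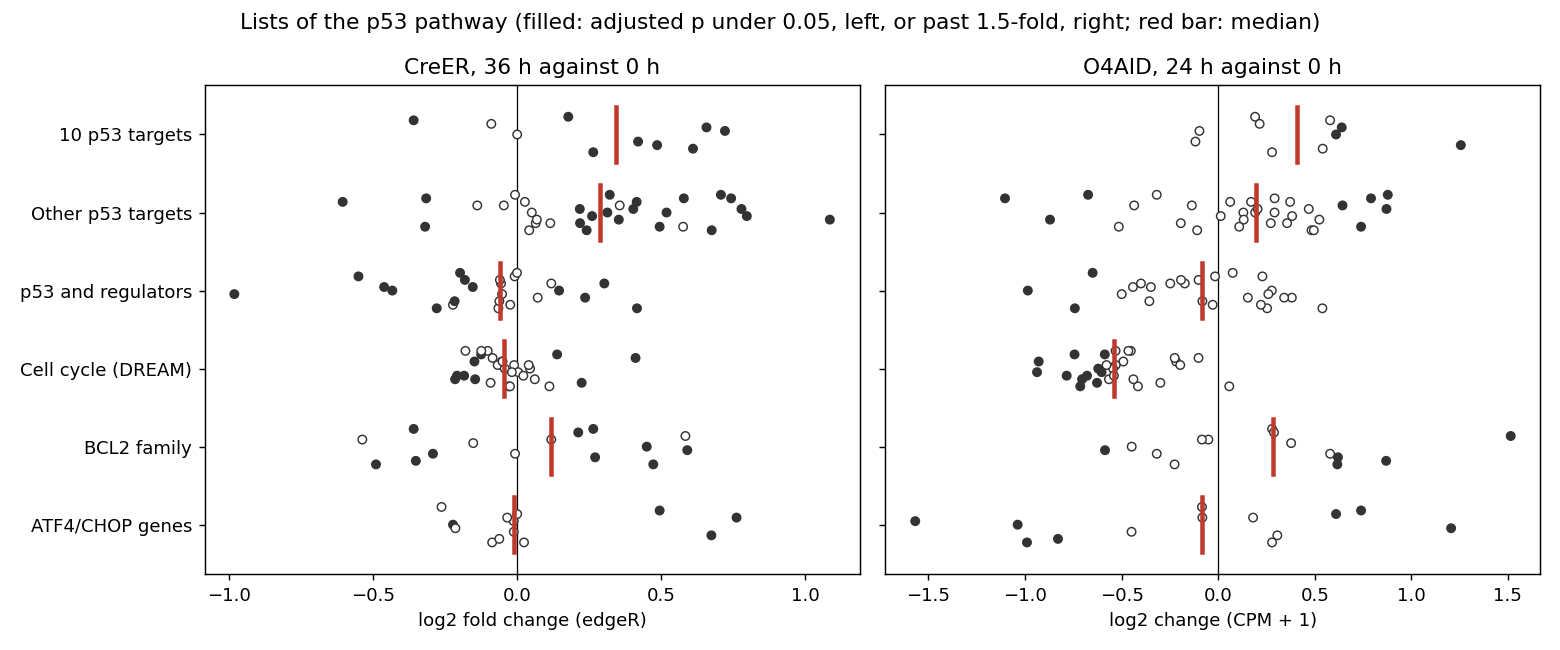
Log2 change (horizontal axis) of every gene in 6 lists at 36 h in CreER ESCs (left, edgeR) and at 24 h in O4AID ESCs (right, ratio of CPM plus 1, no test), 1 point per gene, filled where the adjusted p is under 0.05 (left) or the change exceeds 1.5-fold (right), with the median as a red bar. The medians of the 10 p53 targets lie at 0.34 and 0.41, and that of the cell cycle genes lies at -0.05 in CreER and -0.54 in O4AID.

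The second time course asked the same of ESCs that lost OCT4 protein to IAA. With 1 library at each time no test is possible, so a gene is called higher or lower here only where CPM plus 1 differed by at least 1.5-fold from 0 h, and each log2 change is given with a 95% interval that covers counting error alone. As a gauge of library spread, 0 of the 50 pairs of CreER replicates of the 10 genes differed by that much (median 0.06, largest 0.30, on the log2 scale), and 0.129% to 0.393% of all genes did at the 5 times. At 1.5 h 0 of the 10 passed the fold, where 0.75% of the 15337 genes compared did. At 6 h 0 passed, where 4.98% did (2.46% higher, 2.52% lower). At 10 h *Phlda3* alone was higher, where 8.89% of all genes passed (4.92% higher, 3.97% lower). At 24 h *Phlda3*, *Ccng1* and *Sesn2* were higher and 0 were lower, where 21.8% passed (11.5% higher, 10.2% lower), and the median of the 10 was 0.41 beside -0.02 for all genes.

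*Phlda3* showed the largest difference of the 10 in O4AID. It was at 45.3 CPM at 0 h, 62.9 CPM at 1.5 h, 65.0 CPM at 6 h, 76.0 CPM at 10 h and 110 CPM at 24 h, each value above the one before. After 1.5 h of IAA the log2 change was 0.46 (0.38 to 0.54), after 10 h it was 0.73 (0.65 to 0.81), and after 24 h it reached 1.26 (1.19 to 1.33), or 2.39-fold. *Ccng1* followed with 638 CPM at 0 h, 679 CPM at 1.5 h, 819 CPM at 6 h, 685 CPM at 10 h and 996 CPM at 24 h, and was 0.64 higher at 24 h (0.62 to 0.66). *Sesn2* was at 90.4, 129, 103, 116 and 139 CPM in time order. Its untreated library was the lowest, and the log2 change was 0.51 at 1.5 h (0.45 to 0.57) and 0.61 at 24 h (0.56 to 0.67).

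*Trp53inp1* stayed between 381 and 440 CPM up to 10 h and was at 598 CPM at 24 h, a log2 change of 0.54 (0.52 to 0.57) that falls just short of the fold. *Pmaip1* did so too, with 13.4 CPM at 0 h, 11.7 to 14.5 CPM up to 10 h and 20.5 CPM at 24 h, a log2 change of 0.58 (0.44 to 0.72). *Cdkn1a* went up and down, with 191 CPM at 0 h, 234 CPM at 1.5 h, 187 CPM at 6 h, 216 CPM at 10 h and 176 CPM at 24 h. It was 0.29 higher on the log2 scale at 1.5 h (0.25 to 0.33). The value at 24 h lay below every other O4AID library and differed from 0 h by -0.12 (-0.16 to -0.07). *Mdm2* was highest at 6 h, with 135 CPM at 0 h, 156 CPM at 1.5 h, 160 CPM at 6 h, 128 CPM at 10 h and 127 CPM at 24 h. Its log2 change was 0.24 at 6 h (0.19 to 0.29) and -0.10 at 24 h (-0.15 to -0.05).

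The other 3 genes moved by less than 0.30 at 24 h. *Bbc3* was between 18.5 and 22.8 CPM (0.28 at 24 h, 0.16 to 0.40), *Zmat3* between 65.2 and 89.4 CPM (0.22, 0.15 to 0.28) and *Eda2r* between 67.7 and 89.9 CPM (0.19, 0.13 to 0.25), each with its highest value at 24 h and, for *Zmat3* and *Eda2r*, its lowest at 10 h. *Trp53* was lower at each later time, at 231 CPM, 215 CPM, 182 CPM, 149 CPM and 116 CPM, with a log2 change of -0.99 (-1.03 to -0.94) at 24 h. *Mdm4* was at 282 CPM at 0 h and 200 CPM at 24 h (-0.50, -0.54 to -0.46).

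At 24 h of IAA, when 11.5% of all genes were higher and 10.2% lower, 5 of the 32 other p53 targets were higher and 3 lower, with a median of 0.20 beside -0.02 for all genes. *Btg2* was at 59.5 CPM at 0 h and 110 CPM at 24 h, whereas *Gdf15* was at 5.38 and 2.49 CPM and *Tigar* at 77.4 and 35.5 CPM. Of the 25 regulators 0 were higher and 3 lower, among them *Trp53* and *Trp73*, the latter at 1.09 and 0.249 CPM. Of the 28 cell cycle genes 27 had a log2 change below 0, 0 were higher and 11 were lower, with a median of -0.54. Of the 14 BCL2 family genes compared (*Bcl2* was too low) 4 were higher and 1 lower, with *Bmf* at 13.1 and 39.5 CPM. Of the 13 ATF4 and CHOP genes 2 were higher at 1.5 h, where 0.254% of all genes were, and 4 were higher at 6 h, where 2.46% were. By 24 h 3 were higher and 4 lower. At 24 h *Sesn2* was among the 3 higher, and *Phgdh*, at 199 and 96.3 CPM, among the 4 lower.

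At 24 h the time courses can be set side by side, although the agents, the lines and the sampling differ and no test of their difference was possible. *Ccng1*, *Trp53inp1*, *Phlda3* and *Bbc3* rose in CreER and had positive changes in O4AID. *Phlda3* differed from 0 h by 0.30 in CreER and 1.26 in O4AID, and *Sesn2* by 0.05 and 0.61. *Pmaip1* had opposite signs, at -0.26 and 0.58. *Cdkn1a* (0.51 and -0.12) and *Mdm2* (0.41 and -0.10) rose in CreER and lay slightly below 0 in O4AID with TMM scaling. The largest CreER replicate difference was 0.30 for *Cdkn1a*, more than its O4AID change, and 0.06 for *Mdm2*, less than its O4AID change. With total-count scaling the O4AID change was -0.00507 for *Cdkn1a* and 0.0153 for *Mdm2*, so that the sign of *Mdm2* turned.

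**Figure D4:**
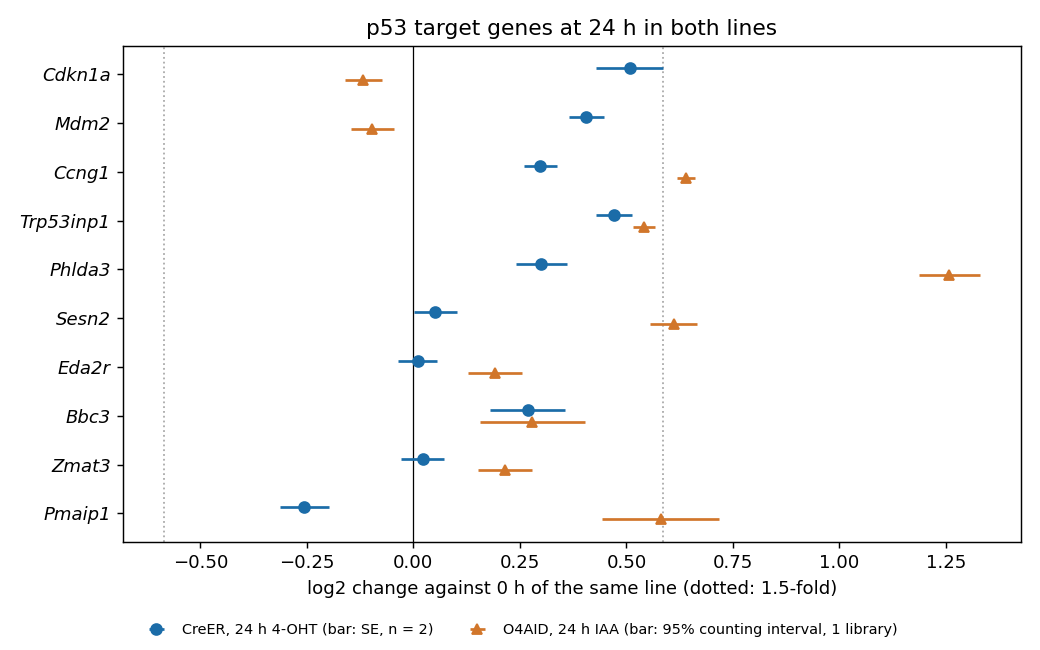
Log2 change at 24 h against 0 h of the same line for each p53 target gene, as edgeR estimates with SE for CreER (blue circles, n = 2) and as ratios of CPM plus 1 with 95% counting intervals for single O4AID libraries (orange triangles), with dotted lines at 1.5-fold. Pmaip1 falls on opposite sides of 0 in the 2 lines, as do Cdkn1a and Mdm2 with the TMM scaling plotted (with total-count scaling Mdm2 in O4AID is at 0.0153), and Phlda3 in O4AID lies furthest from 0 at 1.26.

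The lines also differed before treatment. In TPM, with mean ± SD over the 2 untreated CreER libraries, the levels in falling order were *Ccng1* 272 ± 2.98, *Trp53inp1* 148 ± 5.57, *Sesn2* 85.3 ± 7.78, *Mdm2* 80.4 ± 3.68, *Phlda3* 56.4 ± 4.47, *Pmaip1* 52.0 ± 3.48, *Eda2r* 48.9 ± 0.0946, *Cdkn1a* 26.2 ± 0.359, *Zmat3* 22.9 ± 1.27 and *Bbc3* 17.5 ± 1.31. Neighbours from *Sesn2* to *Mdm2* and from *Phlda3* to *Eda2r* lay within their spread, and the other steps were wider than it. In the single untreated O4AID library *Ccng1* was again highest, at 455 TPM, and *Cdkn1a* came second at 215 TPM, followed by *Trp53inp1* at 159 TPM. *Pmaip1* was lowest there at 12.7 TPM. The others ran from 16.8 TPM for *Zmat3* to 72.7 TPM for *Phlda3*.

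On CPM normalised over all 15 libraries, *Cdkn1a* was 8.53-fold higher in untreated O4AID than in untreated CreER ESCs, a log2 difference of 3.09, and *Pmaip1* differed by -1.86. Over all genes 55.9% of 17081 differed by at least 1.5-fold between the lines, 5.6% by as much as *Cdkn1a* and 14.9% by as much as *Pmaip1*. With total-count scaling the log2 differences were 2.89 and -2.05. Line, strain, doxycycline, the transgenes, sequencing depth and any difference in library preparation cannot be told apart in this contrast. The wide gap in *Rpl11* and *Rpl5* counts given above lies between the same untreated libraries. Its effect on the levels compared between the lines was not tested. The summed level of the 10 genes was 803 and 817 TPM in untreated CreER, 991 and 1038 TPM at 36 h, 1118 TPM in untreated O4AID and 1709 TPM at 24 h of IAA.

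**Figure D5:**
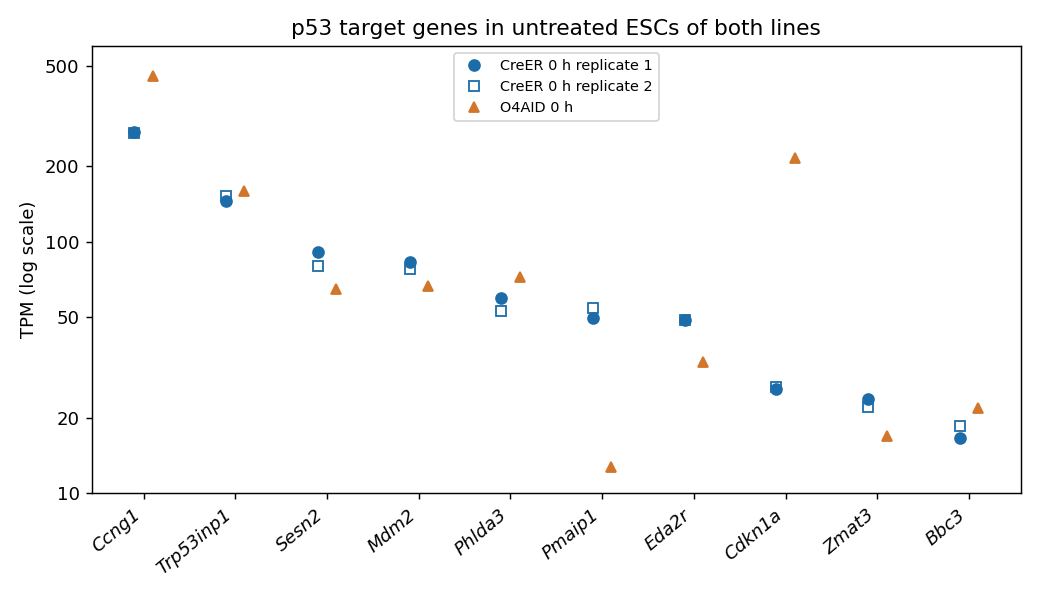
Level per length (TPM, log axis) of the p53 target genes in the 3 untreated libraries, ordered by their mean in CreER, with CreER replicates as blue circles and squares and O4AID as orange triangles. The CreER replicates nearly coincide, Cdkn1a is the gene furthest above them in O4AID (215 against 26.2 TPM) and Pmaip1 the furthest below (12.7 against 52.0 TPM).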

How the data were processed

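Ribosome-depleted, directional paired-end libraries of mouse ESCs were made and sequenced by the authors. Per the submitters' processing notes, reads were trimmed with Trim Galore 0.1.4, aligned to GRCm38 (mm10) with TopHat2 2.1.0 and counted with featureCounts 1.5.1, and the deposited files hold raw counts per Ensembl gene for each library. Strand and multimapping settings are not given in the sources used here. The authors' normalised table was not used, nor was their test, which simulates replicates. Each file held 48801 entries, of which 92 were spike-ins with 0 reads.

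The 10 genes and the lists were chosen with earlier results of these data known, and the lists come from textbook knowledge. CreER counts were fitted in 1 model with edgeR 4.0.16 (TMM factors, filterByExpr, robust quasi-likelihood test, R 4.3.3), and p-values were Benjamini-Hochberg adjusted over all 18969 genes tested. Adjusted p under 0.05 counted as a call. The edgeR test of 36 h against 0 h was run on simulated counts, with rises and falls of 1.5-fold and 2-fold in well-expressed genes. Smaller changes were not simulated there. Nothing in the labels says that replicates came from separate cultures, so p-values measure only the spread between these libraries. Replicates differed by more than sampling noise (chi-square per degree of freedom 3.27 to 7.76). For O4AID, log2 ratios of TMM CPM plus 1 were formed for genes with a mean of at least 0.5 CPM, with exact binomial 95% intervals. TPM used exonic lengths from the files. Besides the 10 genes, *Pou5f1*, *Trp53* and *Mdm4*, the text names up to 3 rises and 3 falls per list, the largest at 36 h in CreER among called genes with at least 50 mean counts and both 36 h replicates on the same side of both untreated libraries. None of the 10 genes shares exonic bases with another gene. Alternatives were RLE size factors, total-count scaling, other filters, pseudocounts and folds, only the 4 libraries compared, a replicate block, each replicate left out, and DESeq2 1.42.0.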

Additional observations from a re-analysis of the deposited data

Results flagged for a closer look

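With TMM scaling, both CreER libraries moved one way at 24 h and the O4AID library the other way in 3 of the 10 genes, each against 0 h of its own line. The log2 change of *Cdkn1a* was 0.51 in CreER and -0.12 in O4AID. That of *Mdm2* was 0.41 in CreER and -0.10 in O4AID. That of *Pmaip1* was -0.26 in CreER and 0.58 in O4AID. With total-count scaling the O4AID change was -0.00507 for *Cdkn1a*, 0.0153 for *Mdm2* and 0.69 for *Pmaip1*, so that the opposite direction of *Mdm2* was lost and that of *Cdkn1a* came to almost nothing. The TMM-scaled O4AID change of *Cdkn1a* was smaller than the largest difference between its CreER replicates, 0.30. That of *Mdm2* was larger than the largest difference between its own, 0.06. The difference between the lines was not tested, since O4AID has 1 library at each time. The untreated levels of *Cdkn1a* and *Pmaip1* also lay furthest apart between the lines among the 10.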

How the results depend on the processing

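The CreER calls of *Mdm2* and *Trp53inp1* at 18, 24 and 36 h, and of *Ccng1*, *Cdkn1a* and *Phlda3* at 24 and 36 h, held under every alternative run. So did the fall of *Pmaip1* at 36 h. Replicate numbers did not pair the libraries (correlations of deviations from -0.0409 to 0.0778), and with the replicate block 5, 7 and 8 of the 10 genes were called at 18, 24 and 36 h, as without it. Leaving out 1 library could change how many of the 10 were called at 18 h against 0 h and between neighbouring times. It changed the number of all genes called as well. From 18 to 24 h, 2 were called with total-count scaling and 2 with only the 4 libraries compared, against 1. Of all genes 302 and 589 were called in these settings, against 257. At 36 h, 17 cell cycle genes were called with total-count scaling and 5 with only 4 libraries, against 9, and 7 stress genes with total-count scaling against 4. Of all genes 7498 were called with total-count scaling and 5811 with only 4 libraries, against 6948.

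For O4AID the share of all genes past the fold was counted only at 1.5-fold on TMM CPM plus 1. The counts in this paragraph are therefore not read as a result about these genes. A fold of 2 can only lower such counts or leave them as they are. In O4AID at 10 h, 0 of the 10 passed 2-fold and 0 passed against 1.5 h as reference, in place of 1. At 24 h, 5 passed with total-count scaling and 1 passed 2-fold, against 3. Of the other targets 1 passed 2-fold and 5 passed against 1.5 h, against 8; of the regulators 0 passed 2-fold, against 3; of the cell cycle genes 6 passed with total-count scaling and 0 passed 2-fold, against 11; of the BCL2 family 1 passed with a pseudocount of 5 and 1 passed 2-fold, against 5; of the stress genes 3 passed 2-fold, against 7.

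Some changes near 0 turned sign, and of these only *Mdm4* at 36 h was called in any fit (adjusted p 0.0239 without replicate 1 at 0 h). With total-count scaling the 12 h values of *Ccng1*, *Trp53inp1*, *Phlda3* and *Zmat3* were -0.0150, -0.00744, -0.00727 and -0.00886. *Sesn2* at 36 h was -0.00947 with RLE factors, -0.0848 with total-count scaling, -0.0105 without a filter, -0.000469 with at least 10 counts in every library, -0.00173 with only 4 libraries and -0.00953 by DESeq2. With 1 library left out, the 12 h values ran from -0.0081 to 0.054 for *Ccng1*, -0.067 to 0.028 for *Cdkn1a*, -0.036 to 0.090 for *Phlda3*, -0.018 to 0.13 for *Sesn2*, -0.026 to 0.086 for *Trp53inp1* and -0.037 to 0.096 for *Zmat3*. *Eda2r* ran from -0.0031 to 0.088 at 18 h and -0.025 to 0.040 at 24 h, *Zmat3* from -0.024 to 0.062 and -0.018 to 0.059, and *Sesn2* from -0.024 to 0.13 at 24 h and -0.077 to 0.073 at 36 h. *Mdm4* ran from -0.14 to 0.041 at 36 h. The cause of these shifts was not tested.

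With 2 CreER replicates, and 23 to 35 CPM for *Cdkn1a* and 14 to 20 CPM for *Bbc3*, small changes of these genes may have been missed. The smallest change that could be detected was not tested. O4AID intervals cover counting error only.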
